A study of Mus musculus with 4 samples.

Results

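The 249 cells described here were neurons of the mouse medial ganglionic eminence (MGE) that carried transcripts of both Adarb2 and Nrp2. They were chosen among 19032 droplet barcodes of 4 single-cell RNA sequencing libraries with at least 3000 unique molecular identifiers (UMIs, counted transcripts) and at most 10% mitochondrial UMIs. A barcode was a member when it held at least 2 UMIs of Adarb2, at least 2 of Nrp2, none of Zic1, at most 2 of Sst and at least 3 of the neuronal genes Stmn2, Gap43 and Mapt together. The last condition alone was met by 11760 barcodes, called neurons here. Members were thus picked on measured values of these 7 genes, which are given as descriptions and not as findings. Cells were taken at e14.5 from pools of microdissected MGE of genotyped embryos on a C57/BL6 ICR mix, all from heterozygous parents, with 2 libraries labelled St18(-/-), called null, and 2 labelled WT. In the study the null allele came from a floxed St18 allele recombined in the germline with E2a-Cre, so that all cells of an embryo carry the deletion. How many embryos made a pool and of which sex is not given in the sources used here. The p-values between null and WT rest on the spread between these pools. Those between groups of cells rest on how the difference within a library varied over the libraries.

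The MGE is the ventral forebrain zone where Nkx2-1 sets the identity of progenitors, and its neurons leave either for the cortex as interneurons, which use Lhx6, or for the globus pallidus and basal forebrain, where Lhx8 is needed for cholinergic neurons. Nrp2 encodes neuropilin 2, a receptor for class 3 semaphorins that steers migrating neurons, and Adarb2 encodes a brain protein of the RNA adenosine deaminase family without known editing activity. In the postnatal cortex Adarb2 is best known as a marker of interneurons from the caudal ganglionic eminence (CGE), which also use Nr2f1, Nr2f2 and Prox1. On the GRCm38 build, Adarb2 lies at chr13:8202866-8768747, plus strand, and Nrp2 at chr1:62703285-62818695, plus strand.

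The raw matrices held 70991150 to 92984713 UMIs per library. St18, the gene deleted in the null embryos, gave 7.41, 19.6, 14.8 and 20.7 counts scaled to a library total of 1000000 UMIs (CPM) in members of null replicates 1 and 2 and WT replicates 1 and 2, the order of every list of 4 below. In the other neurons it gave 18.1, 57.7, 34.95 and 49.3 CPM, so that null replicate 2 was above both WT libraries and went against its label. The counts cover the whole gene and were not split by exon, so transcripts that lack the floxed exons can still be counted. All statements on genotype therefore refer to libraries by their label. Xist, the RNA of the inactive X chromosome, reached 3 UMIs in 39.3% and 91.4% of members in the null libraries and in 0 of the 53 and 77 members in the WT libraries (which allows up to 5.66% and 3.90%), so genotype and sex of the pools cannot be told apart. In the other neurons of the null libraries Xist reached 3 UMIs in 35.4% and 65.5%. In null replicate 2 members and other neurons thus differed in this share. Any pair of libraries shared 4 to 11 barcodes.

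Members numbered 61, 58, 53 and 77, out of 3988, 2411, 2641 and 2720 neurons. Their share of neurons was 1.53% (95% interval 1.17 to 1.96%), 2.41% (95% interval 1.83 to 3.10%), 2.01% (95% interval 1.51 to 2.62%) and 2.83% (95% interval 2.24 to 3.53%), with exact Clopper-Pearson intervals that cover counting error only. The mean was 1.97 ± 0.619% (SD, n = 2) in null and 2.42 ± 0.583% in WT libraries, and the 4 values overlapped between genotypes. The difference of −0.451 percentage points had p = 0.667 in a two-sided exact permutation test over libraries, where 2 against 2 cannot go below 0.3333. Counted with at least 3 UMIs of both genes, the difference was 0.0701 points, and when cells were thinned to 3000 UMIs before the rule was applied it was 0.0803 points, so its direction turned. With at least 5000 UMIs per barcode it was −0.937 points and the genotypes did not overlap (1.68 and 2.45% in null against 2.55 and 3.46% in WT libraries), at the smallest p the exact permutation test allows (0.3333). Members were deeper than the neurons they were compared with, with medians of 8356, 10563, 7063 and 6796 UMIs against 6750.0, 9019, 5932 and 5819 in the non-members described next, and the part of depth in their differences was tested only by thinning.

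**Figure D1:**
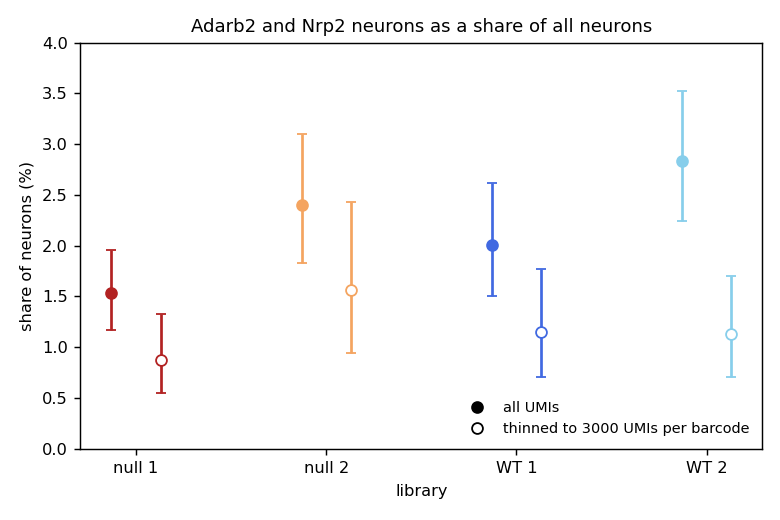
Share of neurons that met the Adarb2 and Nrp2 rule in each library, in percent on the vertical axis, with filled points for all UMIs, open points after thinning to 3000 UMIs per barcode and bars for exact 95% intervals. With all UMIs the null libraries lie at 1.53% and 2.41% and the WT libraries at 2.01% and 2.83%, so the genotypes overlap.

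Adarb2 had a median of 4 UMIs and at most 44 in a member, and Nrp2 a median of 4 and at most 18. Just inside the rule, the 24, 16, 26 and 36 cells whose lower count of the 2 genes was 2 UMIs held 110.3, 67.98, 114 and 80.8 CPM of Gbx1. Just outside it, the 56, 36, 44 and 74 cells whose lower count was 1 UMI held 14.5, 57.4, 79.3 and 52.5 CPM. Neurons without a UMI of either gene held 1.69, 1.74, 3.44 and 5.24 CPM. For Gbx1 the cells just outside the rule thus lay between the members and the neurons without either gene in each library. This did not hold for every gene, since Sema3c in WT replicate 2 gave 90.9 CPM just outside the rule and 51.4 CPM just inside it, and Lhx6 and Lhx8 in null replicate 1 gave 243 and 94.4 CPM just outside it against 294 and 119.9 CPM in neurons without either gene.

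The markers given for this cell type beside Adarb2 and Nrp2 were Gbx1, a homeobox factor, Pde1a, a calmodulin-dependent phosphodiesterase, and Sema3c, a secreted semaphorin. Gbx1 gave 87.1, 89.6, 98.9 and 105 CPM in members and 3.87, 3.59, 8.39 and 11.4 CPM in other neurons, meaning the 8729 non-members with Zic1 at 0 and at most 2 Sst UMIs. Pde1a gave 37.1, 27.99, 104 and 107 CPM in members and 2.99, 3.23, 7.66 and 11.4 CPM in other neurons. Sema3c gave 51.9, 71.4, 111 and 55.3 CPM and 5.04, 5.62, 6.20 and 11.6 CPM. All 3 markers were higher in members in each of the 4 libraries, and since the markers were named with earlier results of these data known, these values are a check of the label and no test. After thinning to 3000 UMIs per cell, a Gbx1 UMI was found in 16.9% of members, 1.78% of other neurons and 0 of 62 microglia, which should lack it and where a count of 0 allows a share of up to 4.84%. Pde1a was found in 14.1% of members and 1.44% of other neurons, and Sema3c in 11.6% and 1.42%. Most single members thus held no UMI of a marker, and without thinning Gbx1 was seen in 81 of 249 (32.5%).

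Most members held transcripts of Lhx6 and Lhx8, 2 genes of MGE identity. Lhx6 was detected in 220 of 249 members (88.4%), Lhx8 in 174 (69.9%) and Nkx2-1 in 121 (48.6%). All 3 were found in 93 members and none of them in 16. After thinning to 3000 UMIs per cell, Lhx6 was found in 67.9% of members, 52.3% of other neurons and 3.23% of microglia, Lhx8 in 52.6%, 21.8% and 3.23%, and Nkx2-1 in 30.5%, 45.6% and 12.9%. Nkx2-1 was thus found in microglia too, which should lack it. Lhx6 gave 441, 441, 438 and 430.4 CPM in members and 293, 369, 269.8 and 291 CPM in other neurons (log2 fold 0.42, SE 0.07, edgeR adjusted p = 1.03e-06). Lhx8 gave 237, 190.3, 354 and 375 CPM and 122, 84.9, 125 and 158 CPM (log2 fold 1.13, SE 0.09, edgeR adjusted p = 2.03e-19), with members above other neurons in every library. Nkx2-1 gave 161, 151, 193 and 237 CPM and 309, 307, 290.5 and 318 CPM and was lower in members (log2 fold −0.83, SE 0.09, edgeR adjusted p = 3.1e-13). Of the 8 genes of the MGE identity list, 4 were higher, 3 lower and 1 not past the test.

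These p-values come from edgeR's quasi-likelihood test on UMIs summed per library and class, with the library as a block, two-sided, and with Benjamini-Hochberg adjustment over 12197 genes. In this comparison 1817 genes (14.9%) were higher and 2196 (18.0%) lower in members, with a median log2 fold of −0.07 over all genes. With library totals as the only scaling, 57.2% of the genes called were higher, against 45.3% with TMM scaling. Counts of list members below are read against those background shares.

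Among genes with at least 20 CPM in the higher group and 1 direction in all libraries, Cxcl14 and Hcrtr2 had the largest rises against other neurons. Cxcl14, a secreted chemokine, gave 51.9, 61.6, 66.7 and 82.97 CPM in members and 1.61, 0.625, 2.34 and 3.58 CPM in other neurons (log2 fold 5.04, SE 0.27, edgeR adjusted p = 2.83e-28). It was carried by 34 of the 249 members. Dab1, the adaptor that passes on the Reelin signal, gave 159, 178, 262 and 142 CPM and 13.6, 15.99, 13.9 and 20.9 CPM (log2 fold 3.41, SE 0.13, edgeR adjusted p = 3.7e-36). Hcrtr2, an orexin receptor, gave 33.4, 23.8, 42.03 and 39.8 CPM and 0.767, 1.04, 1.75 and 3.66 CPM (log2 fold 4.29, SE 0.33, edgeR adjusted p = 2.47e-19). Rgs4, a regulator of G protein signalling, gave 33.4, 36.4, 49.4 and 12.1 CPM and 1.82, 1.35, 1.97 and 3.26 CPM (log2 fold 3.89, SE 0.34, edgeR adjusted p = 6.29e-17). For these genes the lowest member library was above the highest library of other neurons. Dab1 was more widespread, with a UMI in 155 of 249 members. The other genes among the 12 largest rises within these limits were Galntl6 (4.05 on the log2 scale), Sphkap (3.91), Gprin3 (3.87), Gpr26 (3.71), Lypd6b (3.66), Nwd2 (3.64) and Hs3st4 (3.41), besides the marker Gbx1.

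Within the same limits Ebf1, a factor of early striatal neurons, was the gene furthest below other neurons. It gave 37.1, 12.6, 7.42 and 1.73 CPM in members and 289, 362, 323 and 202 CPM in other neurons (log2 fold −4.42, SE 0.17, edgeR adjusted p = 2.52e-36). Isl1, which marks striatal and cholinergic precursors, gave 22.2, 5.60, 0 and 20.7 CPM and 99.8, 105, 99.3 and 60.96 CPM (log2 fold −2.95, SE 0.23, edgeR adjusted p = 3.28e-19). Meis2, a homeobox factor of the lateral ganglionic eminence (LGE), gave 77.8, 92.4, 29.7 and 29.4 CPM and 417, 484, 376 and 237 CPM (log2 fold −2.77, SE 0.11, edgeR adjusted p = 1.58e-35). Zfp503 (−3.13), Slc18a2 (−2.996), Lgals1 (−2.83), Rfx4 (−2.79), Ezr (−2.67), Tuba1c (−3.16), the cell cycle genes Cdc25b (−2.76) and Ccnd2 (−2.61) and the globin Hba-a1 (−3.29), which has a near-identical copy in Hba-a2, made up the other largest falls on the log2 scale. Hemoglobin transcripts varied between libraries in other neurons, where the 6 erythroid genes summed to 398, 83.4, 219.9 and 1462 CPM against 75.97, 69.96, 66.7 and 67.4 CPM in members. The part of free RNA in the globin difference was not tested.

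**Figure D2:**
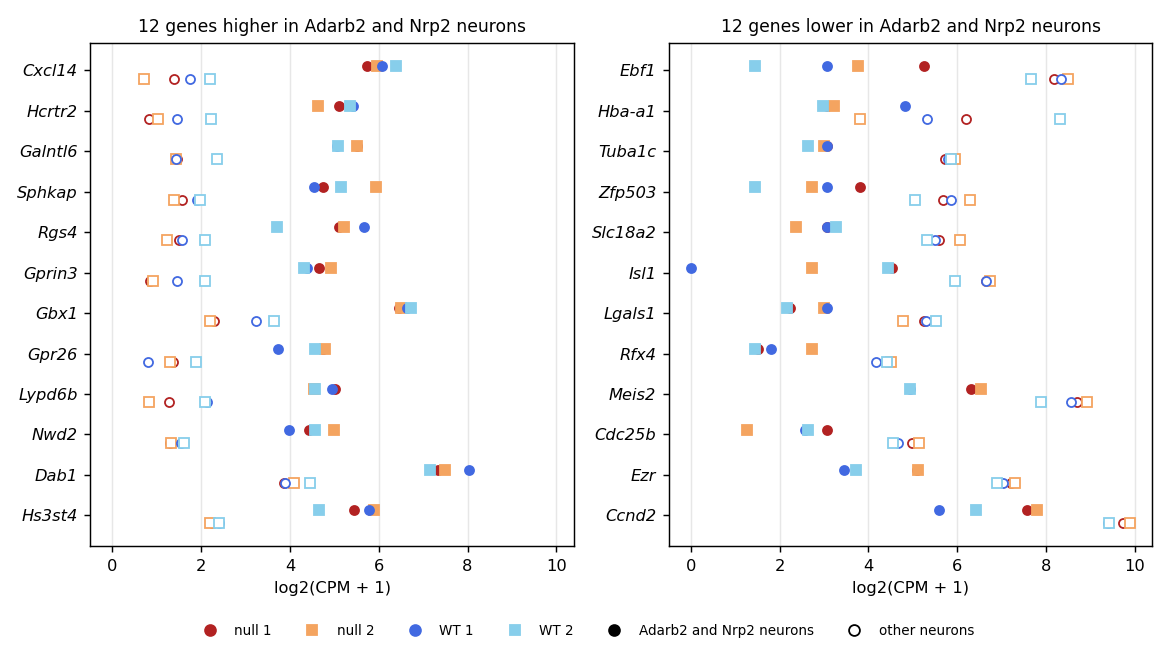
Levels of the 12 genes with the largest rise (left) and the 12 with the largest fall (right) in members against other neurons, among genes with at least 20 CPM in the higher group and 1 direction in all libraries. The horizontal axis gives log2(CPM + 1), with filled points for members, open points for other neurons and 1 symbol per library. Cxcl14 lies between 51.9 and 83.0 CPM in members and between 0.625 and 3.58 CPM in other neurons, while Ebf1 lies between 1.73 and 37.1 CPM in members and between 202 and 362 CPM in other neurons.

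Genes of neuronal maturation were higher in members. Of the 12 genes of that list, 11 were higher and 1 did not pass, with a median log2 fold of 0.48, and these include Rbfox3, a splicing factor of mature neurons (log2 fold 1.41, adjusted p = 1.94e-08), Syt1, the calcium sensor of synaptic vesicles (log2 fold 1.33), and Rtn1 (log2 fold 1.05). Of the 18 GABA and glutamate receptor genes, 16 were higher and 2 did not pass, with a median of 1.39. Among them were the GABA-A subunit Gabrb2 (log2 fold 2.24), the kainate receptor Grik1 (2.07) and the NMDA receptor Grin2b (1.51). Of the 16 cadherins and protocadherins, 14 were higher and 2 did not pass, with a median of 1.13, among them Cdh8 (log2 fold 2.93), Pcdh8 (1.89) and Cdh9 (4.13), which rested on only 2, 5, 1 and 7 UMIs in members. All 12 progenitor genes were lower, with a median of −1.64, including the proliferation genes Mki67 (−1.80) and Top2a (−1.81). Other neurons include dividing cells that carry neuronal transcripts, and 21 of the 249 members (9, 7, 1 and 4) also held at least 3 UMIs of Mki67 and Top2a together.

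Guidance genes moved in both directions. Beside Nrp2, which the rule used, Nrp1 encodes the second neuropilin and was higher in members (log2 fold 1.01, adjusted p = 1.14e-11), whereas the plexins Plxna2 (−1.04) and Plxna4 (−1.43), through which neuropilins signal, were lower. Over the list of neuropilins, plexins and semaphorins, 5 of 11 genes tested were higher and 4 lower. Of 9 Robo, Slit, Dcc and Unc5 genes tested, 3 were higher, among them the netrin receptors Dcc (log2 fold 1.46) and Unc5d (1.63), and 1 was lower. Reln, the secreted ligand of the Reelin pathway, gave 61.1, 50.4, 64.3 and 50.1 CPM in members and 6.90, 6.67, 5.33 and 8.30 CPM in other neurons (log2 fold 2.94, SE 0.21, edgeR adjusted p = 1.29e-20), and was seen in 73 of 249 members. Of the 8 Reelin response genes 3 were higher and 1 was lower. Among adenosine deaminases and cyclic nucleotide enzymes 4 of 10 were higher and 2 lower, and beside Pde1a the phosphodiesterases Pde3a (log2 fold 3.16), Pde4b (2.08) and Pde10a (1.14) were higher.

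Genes of cortical interneuron precursors were mostly lower, with 6 of 10 lower and 2 higher. Cxcr4, the receptor by which tangentially migrating interneurons follow Cxcl12, gave 0, 1.40, 0 and 0 CPM in members and 4.80, 7.97, 8.39 and 5.70 CPM in other neurons (edgeR adjusted p = 0.000154), from a single UMI over all members. Ackr3, its atypical partner receptor (−2.12), Epha4 (−1.76), Maf (−1.71) and Zeb2 (−1.58) were lower on the log2 scale, and Mef2c (1.46), an activity-related factor of developing interneurons, was higher. Satb1, a chromatin organizer of MGE interneurons, was higher as well (log2 fold 0.95). Among GABA neuron genes 6 of 11 were lower, among them Dlx1 (−0.999) and Dlx2 (−1.07), whereas the GABA synthesis enzyme Gad2 was higher (0.35). Calb1, a calcium-binding protein, was higher (log2 fold 1.69), and Npy, a neuropeptide of Sst interneurons, was lower (−2.07), in a comparison of classes both limited to at most 2 Sst UMIs.

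The label raises the question of a CGE origin. Nr2f1 was lower in members than in other neurons (log2 fold −0.66, adjusted p = 4.59e-05) in 3 of the 4 libraries but not in null replicate 2 (326 against 264 CPM). Prox1 was lower as well (−1.41), while the cannabinoid receptor Cnr1 was higher (1.89), with 122, 99.3, 129 and 100.3 CPM in members and 26.2, 32.3, 24.01 and 28.6 CPM in other neurons. Nr2f2 gave 117, 232, 44.5 and 24.2 CPM in members and 90.1, 112, 45.97 and 69.9 CPM in other neurons (log2 fold 0.27, SE 0.15, edgeR adjusted p = 0.16). Of 9 CGE lineage genes tested, 3 (Cnr1, Npas3 and Reln) were higher and 2 lower, and Vip and Egfr had no UMI in members. A gate for CGE neurons without Lhx6 (Nr2f2 with at least 3 UMIs of Prox1, Sp8 and Htr3a) held 10, 13, 6 and 10 cells, fewer than the 20 per library asked for, so this comparison was not made. Of the LGE and striatal list 6 of 11 were lower and 1, the tachykinin gene Tac1, higher (log2 fold 2.47), with Drd1, Drd2 and Ikzf1 at 0 in members. Of the basal forebrain and cholinergic list 3 of 13 genes were tested, of which Gbx2, the relative of Gbx1 (log2 fold 2.63), and Gbx1 itself were higher. The cholinergic genes Chat, Slc18a3 and Slc5a7 had no UMI in members, which were chosen without a Zic1 UMI.

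Markers of blood, vessel and glial cells were near 0 or lower in members, while sums of pallial and hypothalamic genes varied between libraries. Microglial genes summed to 0, 2.80, 0 and 1.73 CPM in members and 11.3, 30.4, 7.30 and 42.97 CPM in other neurons, with Csf1r, P2ry12 and C1qc at 0, and both genes tested were lower. All 5 erythroid genes tested were lower, as were 2 of 3 genes of oligodendrocyte precursors. Neither the 1 endothelial nor the 2 mural and meningeal genes tested passed, and sums stayed at 1.85, 5.60, 4.94 and 3.46 CPM and 0, 8.40, 9.89 and 3.46 CPM. Pallial genes summed to 38.9, 12.6, 2.47 and 3.46 CPM in members and 23.2, 27.3, 2.19 and 7.32 CPM in other neurons. Genes of diencephalon and hypothalamus summed to 53.7, 39.2, 2.47 and 27.7 CPM in members, above other neurons in all libraries but WT replicate 1 (22.4, 19.6, 12.3 and 22.9 CPM). Of 2 pallial genes tested 1 was higher, Slc17a6, and of 3 genes tested of the second list 1 was higher and 1 lower. Otp, a hypothalamic factor with a log2 fold of 4.01, rested on 48 UMIs in 8 members, 20 of them in 1 cell. Of the stress genes 2 of 4 tested and of the Y-linked genes 1 of 4 were lower. In the Myt1 family, to which St18 belongs, Myt1l was higher (log2 fold 1.13) and Myt1 (−0.98) and St18 (−1.47, adjusted p = 2.44e-08) were lower in members.

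**Figure D3:**
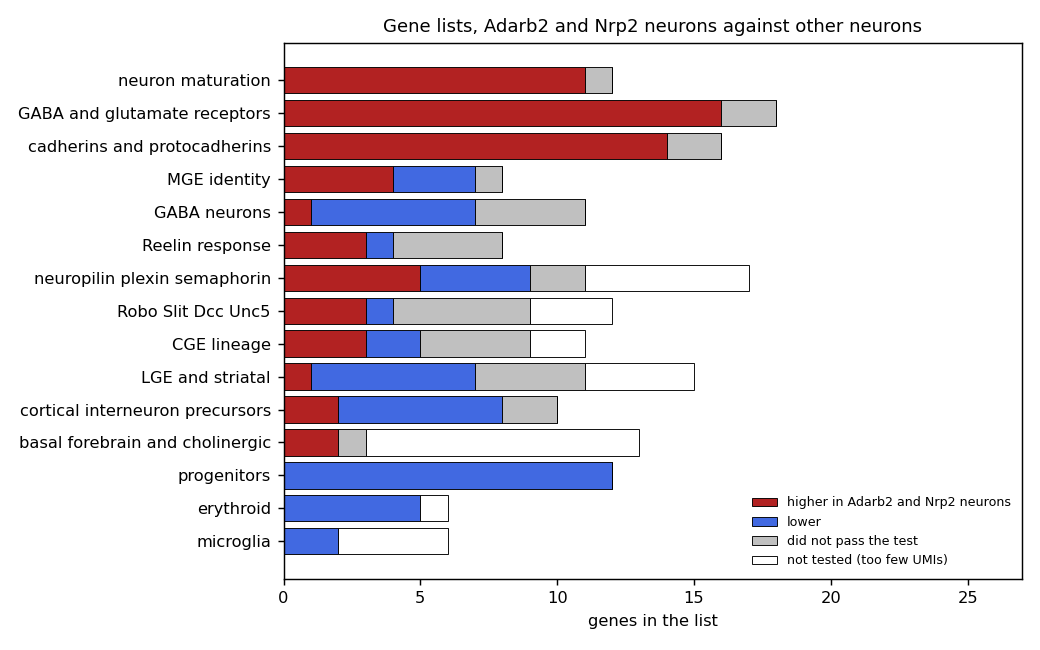
Genes of each list that were higher, lower or not past the test in members against other neurons, with genes too low to test in white, as numbers of genes on the horizontal axis and 1 bar for each of 15 lists. Receptors (16 of 18), cadherins (14 of 16) and neuron maturation genes (11 of 12) were mostly higher, and progenitor genes (12 of 12) were lower.

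Members were also compared with 2 other neuron groups chosen by their MGE genes. The first group held 1888 neurons with Lhx8 and Zic1, as basal forebrain neurons carry them, and 9878 genes were tested by the same edgeR model. There 1181 genes (12%) were higher and 1049 (10.6%) lower in members. Cxcl14 (4.60), the lipoprotein receptor Lrp1b (3.83), Hs3st4 (3.77), Rgs4 (3.53), Nwd2 (3.38) and Hcrtr2 (3.37) had the largest rises on the log2 scale. Slc10a4, a vesicle transporter of cholinergic cells, was lower (−4.40), as were Tuba1c (−2.83), Crabp1 (−2.80), Itm2a (−2.79) and Cdc25b (−2.60). The rule asked for no Zic1 UMI and this gate for at least 1, so falls of genes found with Zic1, such as Slc10a4, can follow from that choice. Zic4, the neighbour and relative of the gate gene Zic1, had no UMI in members and 42.9, 25.5, 47.6 and 63.7 CPM in the gate. Gbx1 gave 41.4, 36.5, 60.9 and 47.6 CPM in this gate, nearer to the members' 87.1 to 105.4 CPM than other neurons were. Pde1a gave 60.2, 57.95, 75.01 and 72.7 CPM there, with a log2 difference of −0.06 (SE 0.19) that did not pass the edgeR test (adjusted p = 0.866). Nr2f1 (1.28) and Nr2f2 (2.07) were higher in members than in this gate, and Isl1 (−2.22) and Nkx2-1 (−1.40) were lower.

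The second group held 3545 neurons with Lhx6 and Nkx2-1 but without the rule for members. Of 10805 genes tested, 2182 (20.2%) were higher and 2008 (18.6%) lower in members. Cxcl14 (6.22), Galntl6 (4.99), Hs3st4 (4.74), Rgs4 (4.55), Hcrtr2 (4.54) and Sphkap (4.50) led the rises, and Tuba1c (−3.50), Tgfb3 (−3.12), Cdc25b (−3.11), S100a16 (−3.03), Ezr (−2.96) and Lgals1 (−2.95) the falls. Reln was higher by 3.60 on the log2 scale and St18 differed by −2.04. Cxcl14, Hs3st4, Rgs4 and Hcrtr2 were among the 12 largest rises against other neurons and the 6 largest against both gates, and these comparisons share the same member counts.

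Members were not 1 uniform group. When all 11760 neurons were clustered on 2000 variable genes without the 7 genes of the rule, members fell in 16 of 21 clusters, with 159 (63.9%) in 1 cluster, 56 (22.5%) in a second and 34 in the rest. The first cluster, of 1138 neurons, was led by Pde1a, Gbx1, Kctd8, Rgs8, Sema3c and Cdh8 beside Sst, Adarb2 and Nrp2, and it also held 586 of the neurons with Lhx8 and Zic1. The second, of 595 neurons, was led by Nts, Hmx2 and Peg10 over all its neurons. Of its 56 members, however, only 4 held Nts and 2 held Hmx2 (25.9 and 3.99 CPM). Over members of these 2 clusters and of the rest, in that order and summed over libraries, Gbx1 gave 146, 25.9 and 16.5 CPM and Sema3c 109.8, 3.99 and 23.5 CPM. Lhx6 gave 539, 251 and 344 CPM. Nr2f1 gave 25.9, 301 and 421 CPM and Nr2f2 9.92, 235 and 306 CPM, lowest where Gbx1 was highest. Calb1 gave 170.1, 279 and 75.3 CPM, but the first cluster was above the second in null replicate 2 and WT replicate 1. Satb1 gave 296, 41.9 and 134 CPM, and Top2a was highest in the rest with 91.5, 63.8 and 831 CPM. Non-members of the first cluster within the same Zic1 and Sst limits (61, 21, 72 and 129 cells) held 131, 116, 147 and 112 CPM of Gbx1 and 72.5, 81.4, 187 and 124 CPM of Pde1a, above the members as a whole in each library. These cells also held 52.99, 0, 39.6 and 36.8 CPM of Cxcl14 and 97.6, 180.3, 103 and 128 CPM of Dab1, against 51.9 to 82.97 and 142 to 262 CPM in all members, so both genes were found outside the members as well. These levels describe the sets and are not tests, because the cells were clustered on expression. Of the 249 members, 61 held Gbx1 without Nr2f1 or Nr2f2, 54 held Nr2f1 or Nr2f2 without Gbx1, 20 held both kinds and 114 neither. Of the 81 members with Gbx1, 20 thus also held Nr2f1 or Nr2f2, which 74 of all 249 members (29.7%) held. These counts do not show that the 2 kinds exclude each other in single cells, which was not tested.

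**Figure D4:**
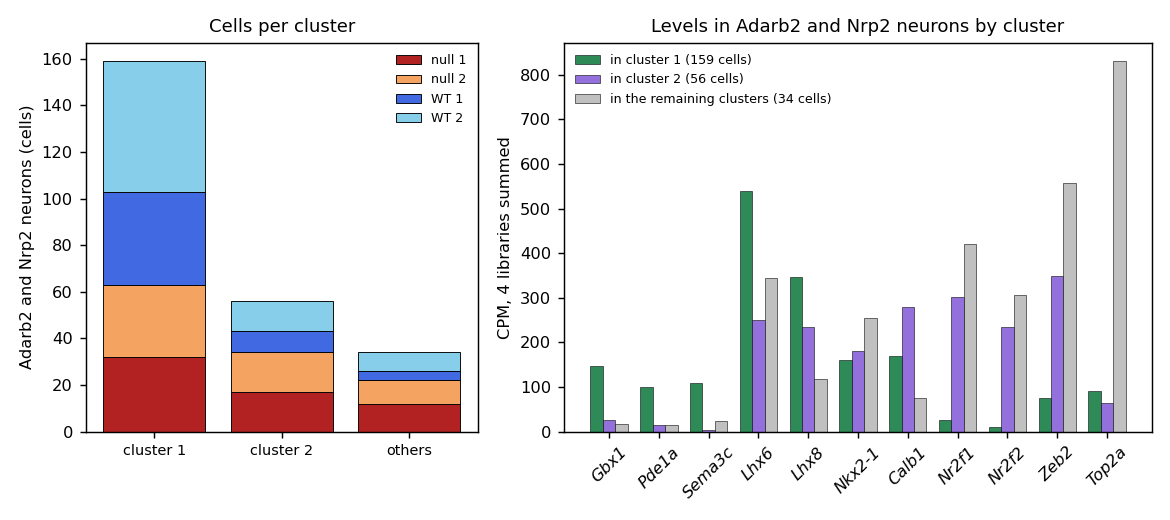
Left, numbers of members in the 2 Leiden clusters with most members and in the others, stacked by library. Right, levels of 11 genes in those members in CPM summed over the 4 libraries, with 1 bar per set and no error bar. The first cluster holds 159 members and the highest Gbx1 level (146 CPM), while Nr2f1 is lowest there (25.9 CPM).

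Between libraries labelled null and WT, members differed in Nr2f1 and Nr2f2, nuclear receptors that pattern the caudal ventral forebrain. Nr2f1 (chr13:78188973-78199757, minus strand) gave 163, 326, 56.9 and 34.6 CPM, from 88, 233, 23 and 20 UMIs. Both null libraries lay above both WT libraries, with means of 245 ± 115 and 45.7 ± 15.8 CPM (SD, n = 2), and the edgeR test without covariates gave a log2 fold of 2.39 (SE 0.31, adjusted p = 0.000825). Nr2f2 (chr7:70351944-70366735, minus strand) gave 117, 232, 44.5 and 24.2 CPM, again without overlap (log2 fold 2.33, SE 0.34, edgeR adjusted p = 0.00162). In other neurons of the same libraries Nr2f1 gave 231, 264, 172 and 172 CPM (log2 fold 0.35, SE 0.11, edgeR adjusted p = 0.188), and the class by genotype term, the difference between the 2 folds, was 2.02 for Nr2f1 (SE 0.22, edgeR adjusted p = 2.59e-15) and 1.71 for Nr2f2 (SE 0.27, adjusted p = 8.43e-07). DESeq2 gave no adjusted p for either gene in members, where its filter on low mean counts left both out. The Nr2f1 class by genotype term did not pass in 1 of 14 settings, after thinning, where it was 9.14. Members then held 2, 4, 0 and 0 Nr2f1 UMIs, too few to read this value as the size of a difference. For Nr2f2 the class by genotype term did not pass without null replicate 2 (1.22, adjusted p = 0.268), without WT replicate 2 (0.91, adjusted p = 0.707) or with DESeq2 (1.53, adjusted p = 0.777), and after thinning it turned to −0.0689.

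Members inside the first cluster, where Nr2f1 and Nr2f2 were low, numbered 32 of 61, 31 of 58, 40 of 53 and 56 of 77, a larger share in both WT libraries than in both null libraries, given without a test. Nr2f1 was detected in 23, 22, 8 and 6 members, and the 5 cells with most UMIs held 47, 133, 20 and 19 of the 88, 233, 23 and 20 UMIs. With only 8 and 6 WT members that held Nr2f1, 5 cells held almost all WT UMIs. In null replicate 2, 54 of the 233 UMIs lay in 1 cell, which had 49384 UMIs and a high doublet score. That cell also held 31 of the 166 Nr2f2 UMIs of this library. Without high doublet scores the Nr2f1 log2 fold between null and WT members was 2.55 (edgeR adjusted p = 0.0118). Nr2f1 or Nr2f2 was found in 45.9%, 43.1%, 18.9% and 14.3% of members, and after thinning Nr2f1 was found in 21.3, 25.9, 13.2 and 5.19% of members against 31.5, 33.7, 27.2 and 24.9% of other neurons and 3.23% of microglia. Members inside the first cluster held 55.03, 17.7, 39.2 and 2.54 CPM of Nr2f1, where the edgeR test did not pass (log2 fold 0.80, adjusted p = 0.699), and members of the other clusters 273, 604, 112 and 103 CPM, where it did not pass either (log2 fold 2.005, adjusted p = 0.544). Limiting members to at most 1 Xist UMI left only 37 and 5 of them in the null libraries. With this limit the Nr2f1 difference passed (log2 fold 2.25, edgeR adjusted p = 0.0382). When each cell was thinned to 3000 UMIs before the rule was applied, 22, 19, 20 and 22 members were left. They held 2, 4, 0 and 0 Nr2f1 UMIs and 2, 4, 0 and 4 of Nr2f2, too few for the test between null and WT members. The null members were deeper than the WT members in these libraries (medians of 8356 and 10563 against 7063 and 6796 UMIs), and the part of depth in the difference was not tested beyond this.

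Pde1a (chr2:79834453-80129458, minus strand), a marker of these neurons, was lower in null members, with 37.1, 27.99, 104 and 107 CPM from 20, 20, 42 and 62 UMIs (log2 fold −1.82, SE 0.27, edgeR adjusted p = 0.00244). Other neurons held 2.99, 3.23, 7.66 and 11.4 CPM (log2 fold −1.77, SE 0.23, edgeR adjusted p = 0.0644), and the class by genotype term was −0.03 (adjusted p = 1). Inside the first cluster members held 51.4, 44.3, 134 and 155 CPM (log2 fold −1.67, edgeR adjusted p = 0.0283). With null members limited to at most 1 Xist UMI, which leaves 37 and 5 of them, the fold was −1.44 and did not pass (adjusted p = 0.416). When cells were thinned before the rule was applied, members held 5, 2, 9 and 1 Pde1a UMIs (75.8, 35.1, 150 and 15.2 CPM). WT replicate 2 then lay below both null libraries, so the genotypes overlapped. These counts are too low to show whether the Pde1a difference holds at equal depth. Lhx8 was lower in null members (log2 fold −0.88, SE 0.17, edgeR adjusted p = 0.0198), a call lost in 7 of 16 settings, namely without either WT library, without high doublet scores, with at most 1 Xist UMI, inside the first cluster (−0.46, adjusted p = 0.331), outside it and after thinning (−0.0784, adjusted p = 0.959). Gbx1 (log2 fold −0.31, SE 0.22, edgeR adjusted p = 0.571), Sema3c (log2 fold −0.45, SE 0.30, edgeR adjusted p = 0.553) and Lhx6 (log2 fold −0.08, SE 0.15, edgeR adjusted p = 0.875) did not pass.

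Of 7253 genes tested between null and WT members, 28 (0.386%) were higher and 46 (0.634%) lower in null, and 1003 had an unadjusted p under 0.05. With library totals as the only scaling, which moved the median of all genes by 0.112, 66.7% of 57 genes called were higher against 37.8% of 74, and with DESeq2 9.09% of 55 were higher. The numbers of calls were 550, 172, 31 and 59 without null replicate 1, null replicate 2, WT replicate 1 and WT replicate 2. Xist gave 669, 1709, 0 and 0 CPM and its antisense partner Tsix 68.6, 188, 0 and 0 CPM, with no UMI of either in WT members. Beside these, the largest rises on the log2 scale were Gadd45g (2.93), a gene of newborn neurons, Neb (2.72), Nr2f1, Nr2f2, Pkd1 (2.13), the glial and progenitor factor Nfia (2.09), the progenitor filament Nes (2.08) and the receptor Notch1 (2.03). Leaving out genes with Gm or Rik names, the largest falls were the Y-linked Eif2s3y (−1.95), Pde1a, Phpt1 (−1.42), the antisense gene Kcnmb4os2 (−1.36), Rpa3 (−1.31), the adhesion molecule Opcml (−1.10), Ndufa1 (−1.07) and Ndufc1 (−1.07), both subunits of respiratory complex I, Tmem223 (−1.02) and Pdcd5 (−1.01). Gm17750, one of the genes left out, was lower as well (−1.18), with 543, 390, 1046 and 928 CPM. Gadd45g rested on 34, 19, 3 and 2 UMIs and Neb on 23, 33, 4 and 2 UMIs, so that a few UMIs set their WT levels. Many of these calls depended on the setting and were lost in 7 of 11 settings for Pkd1, in 7 of 13 for Kcnmb4os2, in 7 of 14 for both Rpa3 and Ndufa1, in 6 of 14 for both Opcml and Tmem223, in 5 of 13 for Phpt1 and 5 of 16 for Pdcd5, in 4 of 12 to 16 for Notch1, Nes, Eif2s3y and Ndufc1, and in 3 of 10 to 12 for Gadd45g, Nfia and Neb. Notch1 gave 50.03, 57.4, 7.42 and 15.6 CPM and Nes 75.97, 64.4, 12.4 and 17.3 CPM, with both null libraries above both WT libraries.

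Of the lists, 3 of 10 progenitor genes tested were higher in null members (median log2 fold 0.90 against 0.02 over all genes), with 2.08 for Nes, 1.005 for the filament Vim and 0.87 for the stem cell factor Sox2. The summed level of the 12 progenitor genes was 1562, 1748, 744 and 1118 CPM. Members with at least 3 UMIs of Mki67 and Top2a together numbered 9, 7, 1 and 4. That limit was set on all UMIs, and null members were deeper (medians of 8356 and 10563 against 7063 and 6796 UMIs). Whether these numbers differ at equal depth was not tested. The 5 members with most Top2a UMIs held 96 of 122, 149 of 176, 12 of 19 and 166 of 188 of them. The cell with 98 of them in null replicate 2 had 49384 UMIs and a high doublet score. The cell with 101 in WT replicate 2 had 24744 UMIs and no high score. Of 6 CGE lineage genes tested 2 were higher, Nr2f1 and Nr2f2. Among LGE and striatal genes Meis2 was higher (1.43), and among cortical interneuron precursor genes Zeb2 (1.02), 1 of 8 and 1 of 9 tested. Of 7 MGE identity genes 1, Lhx8, was lower. In the lists of GABA neurons, neuron maturation, cadherins, neuropilins and plexins, Robo and netrin receptors, Reelin response and the Myt1 family, edgeR called 0 of 11, 12, 11, 10, 4, 8 and 3 genes tested, with 4, 2, 2, 1, 1, 1 and 0 at an unadjusted p under 0.05, and DESeq2, which gave an adjusted p to only 4, 7, 0, 0, 1, 0 and 1 of them, called 0. Of 13 receptor genes edgeR called 0, with 2 at an unadjusted p under 0.05, and DESeq2 called 1 higher, the only one it gave an adjusted p, the AMPA receptor subunit Gria2. Genes of nuclear-encoded oxidative phosphorylation, a list of 80 chosen after its values were seen, were lower in 18 of 72 cases, with a median log2 fold of −0.50 in members and −0.51 in other neurons. They summed to 20658, 18566, 26172 and 26264 CPM in members and 21764, 18668, 25606 and 25768 CPM in other neurons, so the null libraries were lower in both classes. The noncoding RNA Gm42418 gave 10469.6, 16151, 25675 and 26361 CPM in members and 9762, 17152, 26117 and 25352 CPM in other neurons, again lower in both null libraries in both classes, and the part of such library-wide shifts in the differences above was not tested.

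**Figure D5:**
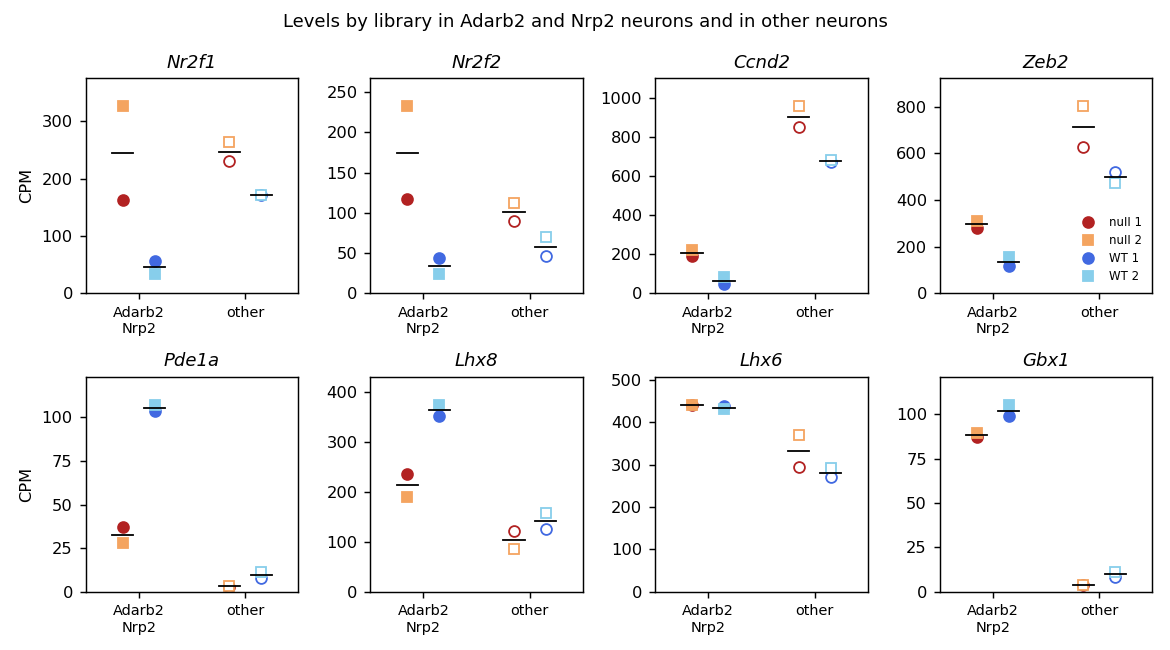
Levels of 8 genes in members (filled) and other neurons (open), in CPM on a vertical axis from 0, with 1 symbol per library and lines for the mean of the 2 libraries of a genotype. Nr2f1 in members lies at 163 and 326 CPM in null and at 56.9 and 34.6 CPM in WT, whereas in other neurons it lies between 172 and 264 CPM.

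The class by genotype test asked over 13177 genes whether the null and WT members differed by another amount than the null and WT other neurons. It called 37 genes (0.281%) higher, meaning a larger null to WT ratio in members, and 2 (0.0152%) lower. Of the progenitor list 4 of 12 tested and of the CGE list 2 of 10 (Nr2f1 and Nr2f2) were called higher, as were 4 of 5 erythroid genes, whose level in other neurons of WT replicate 2 was the highest of the 4 libraries. Of the MGE identity list 1 of 8 was called lower, Sox6, a call lost in 8 of 14 settings. Without null replicate 2, 14 genes were called, and without WT replicate 1, 15.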

How the data were processed

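10x Genomics droplet libraries were made from pooled MGE of e14.5 embryos, with 2 null and 2 WT libraries. The counts were deposited by the authors as raw matrices of UMIs, with all barcodes and no normalization, after alignment to GRCm38 (Cell Ranger 5.0.1 in the submitters' processing notes, Cell Ranger 4 in the file headers). Libraries were numbered in accession order. Positions are from GENCODE M21, which held 32235 of 32285 gene IDs (99.8%).

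Barcodes past the limits given with the rule were kept, and UMIs were summed per library and class. Libraries, not cells, were the replicates. edgeR 4.0.16 in R 4.3.3 was run with TMM scaling, filterByExpr, the quasi-likelihood F-test, Benjamini-Hochberg adjustment and a threshold of 0.05, with the library as a block between classes. It was also run on simulated counts with 1 spread for all genes, which does not show how it performs on these libraries. Single values used exact tests in scipy 1.17.1, and Leiden clusters scanpy 1.11.5 (30 principal components, 15 neighbours, resolution 1.0). Neighbours were searched exactly, which replaced an approximate search after results were seen to make the clusters repeatable. The approximate search put fewer members in the leading cluster and gave more genes past the threshold between genotypes both inside and outside it, while Nr2f1 inside it did not pass and Pde1a did under either search. Scrublet's own threshold called 0, 1, 3 and 1 barcodes and was not used. Doublets stayed in, and leaving out the 352, 120, 163 and 129 highest scores (0.8% per 1000 cells), among them 6, 4, 3 and 3 members, was an alternative.

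Members, markers and the 24 gene lists were chosen with earlier results of these data known. Genes were named when past the threshold with at least 20 CPM in the higher group and 1 direction in all libraries, by size of the fold (up to 12 per direction against other neurons, 6 against each gate and 10 between genotypes), or as list members. Genes with Gm, Rik or similar provisional names and mitochondrial genes were left out of these rankings. Neurons of Lhx8 and Zic1 had at least 1 UMI of both, and those of Lhx6 and Nkx2-1 at least 2 and 1. Alternatives were DESeq2 1.42.0, other scalings, no filter, other UMI limits, thinning, an Xist limit, each library left out and, added after the data were seen, members inside or outside the leading cluster. Counts of 0 are read as under 3 counts.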

Additional observations from a re-analysis of the deposited data

Results flagged for a closer look

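The class by genotype term of edgeR's quasi-likelihood model called 39 genes, meaning a null to WT difference unlike in members and in other neurons. Named here are 12 of them, those with the largest terms, up to 10 per direction, within the limits for naming genes. In each, the ratio of members to other neurons in both null libraries lay on 1 side of that in both WT libraries. The term was 3.07 (SE 0.52, adjusted p = 9.06e-06) for Gadd45g, 2.78 (SE 0.70, adjusted p = 0.0295) for the membrane protein gene Ttyh1 and 2.35 (SE 0.52, adjusted p = 0.00324) for Neb. Members held 63.0, 26.6, 7.42 and 3.46 CPM of Gadd45g, 25.9, 28.0, 7.42 and 0 CPM of Ttyh1 and 42.6, 46.2, 9.89 and 3.46 CPM of Neb, with both null libraries above both WT libraries, although Ttyh1, with 14, 20, 3 and 0 UMIs, did not pass between null and WT members (edgeR adjusted p = 0.0635). The call was lost or turned in 7, 10 and 8 of 14 settings for these 3 genes, and the term turned sign for Gadd45g without high doublet scores (−0.13) and for Neb after thinning (−7.41). For Nr2f1 the term was 2.02 (SE 0.22, adjusted p = 2.59e-15) and for Nr2f2 1.71 (SE 0.27, adjusted p = 8.43e-07), which turned to −0.0689 after thinning. The Nr2f1 term was 9.14 after thinning and did not pass, with 2, 4, 0 and 0 Nr2f1 UMIs left in members. Values after thinning are therefore not read as sizes of a difference.

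Among genes of dividing cells and progenitors, the term was 1.85 (SE 0.39, adjusted p = 0.00158) for the antiproliferative gene Btg2, 1.76 (SE 0.43, adjusted p = 0.0186) for the histone gene Hist2h2bb and 1.69 (SE 0.37, adjusted p = 0.00264) for Atad2. It was 1.70 (SE 0.37, adjusted p = 0.00329) for Id2, an inhibitor of differentiation factors, and 1.64 (SE 0.33, adjusted p = 0.000797) for the Notch target Hes5. All 5 terms turned sign in at least 1 setting, for Btg2 after thinning (−0.92), without high doublet scores (−0.50) and with at most 1 Xist UMI (−2.29), for Atad2 (−0.17), Id2 (−6.83) and Hes5 (−0.29) after thinning, and for Atad2 (−1.52) and Hist2h2bb (−0.31) with at most 1 Xist UMI. Hes5 gave 29.6, 88.2, 24.7 and 20.7 CPM in members and 119, 98.5, 100.04 and 126 CPM in other neurons, so that members lay below other neurons in every library. Between null and WT members alone, Id2 (edgeR adjusted p = 0.164), Hes5 (0.172) and Hist2h2bb (0.494) did not pass, and Hist2h2bb overlapped with 12.97, 44.8, 7.42 and 20.7 CPM. Members with at least 3 UMIs of Mki67 and Top2a together numbered 9, 7, 1 and 4, and the part of these cells in the terms was not tested. The limit was set on all UMIs and not at equal depth, while null members were deeper than WT members.

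The 2 genes with a term below 0 were Sox6, a factor of MGE interneurons, with −0.64 (SE 0.16, adjusted p = 0.021), and Pou3f2, a neuronal POU factor, with −0.58 (SE 0.15, adjusted p = 0.0303). Sox6 gave 302, 168, 307 and 297 CPM in members and 225, 277, 207 and 199 CPM in other neurons. Pou3f2 gave 289, 246, 361 and 401 CPM in members and 259, 285, 224 and 273 CPM in other neurons. Neither passed between null and WT members (edgeR adjusted p = 0.338 for Sox6 and 0.0881 for Pou3f2), and Sox6 in null replicate 1 was above WT replicate 2. The call was lost in 8 of 14 settings for Sox6, and it was lost or turned in 6 of 14 for Pou3f2. The Pou3f2 term turned to 0.22 after thinning.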

How the results depend on the processing

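The difference in share (null minus WT, −0.451 points) was −1.20 with at least 1 UMI of Adarb2 and Nrp2, 0.0701 with at least 3, 0.0803 after thinning, −0.937 at 5000 UMIs, −1.36 with at most 1 Xist UMI, and −0.889 to −0.0132 with 1 library left out. The 74 genes between null and WT members became 167 without the filter on low counts, 39 at 5000 UMIs, 215 and 167 with at least 1 or 3 UMIs of both genes, 2 after thinning, 15 without high doublet scores, 6 with at most 1 Xist UMI, 3 inside and 1 outside the leading cluster, and 31 to 550 with 1 library left out. DESeq2 called 55, of which 33 were among the 74. All 15 genes called without high doublet scores were among the 74. Against other neurons 700 genes were called after thinning, of which 640 were among the 4013. Against neurons with Lhx8 and Zic1 (2230) it was 1334 with DESeq2, 292 after thinning, 1453 with at most 1 Xist UMI and 1267 without the library block, and against neurons with Lhx6 and Nkx2-1 (4190) it was 675 after thinning. The class by genotype calls (39) became 3 with DESeq2, 117 with at least 1 UMI of both genes, 57 with at least 3, 0 by edgeR after thinning (309 at an unadjusted p under 0.05), 12 without high doublet scores, 12 with at most 1 Xist UMI and 14 to 46 with 1 library left out.

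The class by genotype term turned its sign after thinning for Atad2 (−0.17), Btg2 (−0.92), Hes5 (−0.29), Id2 (−6.83), Neb (−7.41), Nr2f2 (−0.0689) and Pou3f2 (0.22), without high doublet scores for Btg2 (−0.50) and Gadd45g (−0.13), and with at most 1 Xist UMI for Atad2 (−1.52), Btg2 (−2.29) and Hist2h2bb (−0.31). The cause was not tested, but thinning left 22, 19, 20 and 22 members. They held 2, 4, 0 and 4 Nr2f2 UMIs, so terms after thinning can rest on very few counts and are not read as sizes. Of the named genes' values under alternatives, 372 against other neurons, 163 and 165 against the 2 groups and 229 between genotypes stayed on the same side of the threshold, while 7, 0, 0 and 87 kept the direction but no longer passed. Of the 229, 4 turned sign without passing in either setting, for Gbx1, Sema3c and St18, and all others kept their direction. For the class by genotype term, 90 kept direction and call, 66 no longer passed and 12 turned sign as listed. The comparison with CGE neurons was not made. No paired analysis was possible because the labels carry no replicate numbers, which concerns null against WT, whereas comparisons of classes were paired by library. With 2 libraries per genotype and 53 to 77 members each, genes under a few CPM could not be measured.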
